A study of Homo sapiens with 16 samples.

Results

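The 43 genes described here are markers of mesenchymal cells, of the extracellular matrix they secrete and of the bone-forming lineage. They were taken by symbol from the 27434 gene rows that the deposited tables list, and all 43 were found. By role they are 12 collagen chains, 8 other matrix proteins and crosslinking enzymes, 7 cytoskeletal and cell surface proteins, 7 mesenchymal transcription factors, and 9 factors and markers of bone. The row of BGLAP, the gene of osteocalcin, is joined in the tables with PMF1 and the PMF1-BGLAP readthrough, so its reads cannot be assigned to osteocalcin.

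Poly(A) RNA was sequenced in 16 libraries, 8 groups of 2, from the human lines U2OS, derived from an osteosarcoma, and HCT116, derived from a colorectal carcinoma. The series asks how the RNA-binding protein SAM68 and the long noncoding RNA NORAD act together on Pumilio proteins, which repress mRNAs. U2OS cells, all of wild-type genotype, were transfected with siRNAs against SAM68 or a non-targeting pool at 50 nM, or with a plasmid of the mouse SAM68 gene or an empty vector at 100 ng per 20000 cells. Wild-type HCT116 cells and HCT116 cells with SAM68 knocked out were given the non-targeting pool or siRNAs against NORAD, and all cells were harvested after 48 h. No label states that replicate libraries are separate cultures, or how many knockout clones were used, and the p-values given here then reflect the spread of these libraries alone, which may be technical.

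Mesenchymal cells move singly and build a matrix of fibrillar collagens, fibronectin and their crosslinking enzymes, whereas epithelial cells are joined in sheets and rest on a basement membrane of type IV collagen. Transcription factors of the SNAI, ZEB and TWIST families repress epithelial genes and favour the mesenchymal state. Osteoblasts are mesenchymal cells in which RUNX2 and then SP7 direct the making of type I collagen and of mineralising proteins such as alkaline phosphatase, osteopontin and bone sialoprotein. Type I collagen is a trimer that normally holds chains of both COL1A1 and COL1A2.

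Library totals were 11349545 to 27387412 expected counts, and the 43 genes took 0.836% to 1.55% of them in U2OS and 0.0521% to 0.0663% in HCT116. The gene of SAM68, KHDRBS1, was at 48.2 and 75.4 CPM under its siRNA against 229 and 232 under control siRNA, at 523 and 589 under the plasmid against 220 and 273, and at 32.5 to 45.6 in the knockout against 215 to 250 in wild-type HCT116. The plasmid carries the mouse gene and the reads were set on human hg19. Its value may thus mix reads of the human gene with mouse reads that align there. NORAD was at 48.8 to 78.7 CPM under its siRNA and at 231 to 259 under control siRNA in HCT116. CPM stands for counts scaled to a common library total, here with a correction for composition over all 16 libraries. As a check of the labelled lines, 17 epithelial and colon markers summed to 4137 to 5612 CPM in HCT116 and 643 to 1261 in U2OS, and VIL1 and CDX1 were at 0 in all HCT116 libraries.

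The lines were compared first, under the same control siRNA. Most of these genes were far higher in U2OS, where several of them were abundant, and HCT116 held no reads or a handful for chains of type III, IV and XI collagen and for lysyl oxidase. Of 38 genes that passed the filter on low counts, 31 were called higher in U2OS and 2 lower, TWIST1 and MSX2, at an adjusted p below 0.05 in edgeR's quasi-likelihood test. A gene passes this filter if 1 line alone holds enough reads. Within a single line, 37 of the 43 passed in U2OS and 21 in HCT116. For members that passed through 1 line alone the filter set the direction, and they enter these counts and the medians below. The background is high, because 65.4% of all 16444 tested genes were called, 35.6% of them higher and 29.8% lower. The libraries of both lines did not overlap for 35 of the 38, against 85.1% of all genes. As a description of size, the median absolute log2 difference was 6.32 for the members and 0.91 for all genes. With sign, the median of the members was 6.07, or 5.43 with 9 genes set at the bound that a count of 0 allows. The signed median of all genes was 0.10, where higher and lower genes cancel. In bulk RNA, fewer cells of a type and less RNA per cell cannot be told apart. Nor can the line be told apart from anything else that differed between the libraries of the 2 lines.

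**Figure D1:**
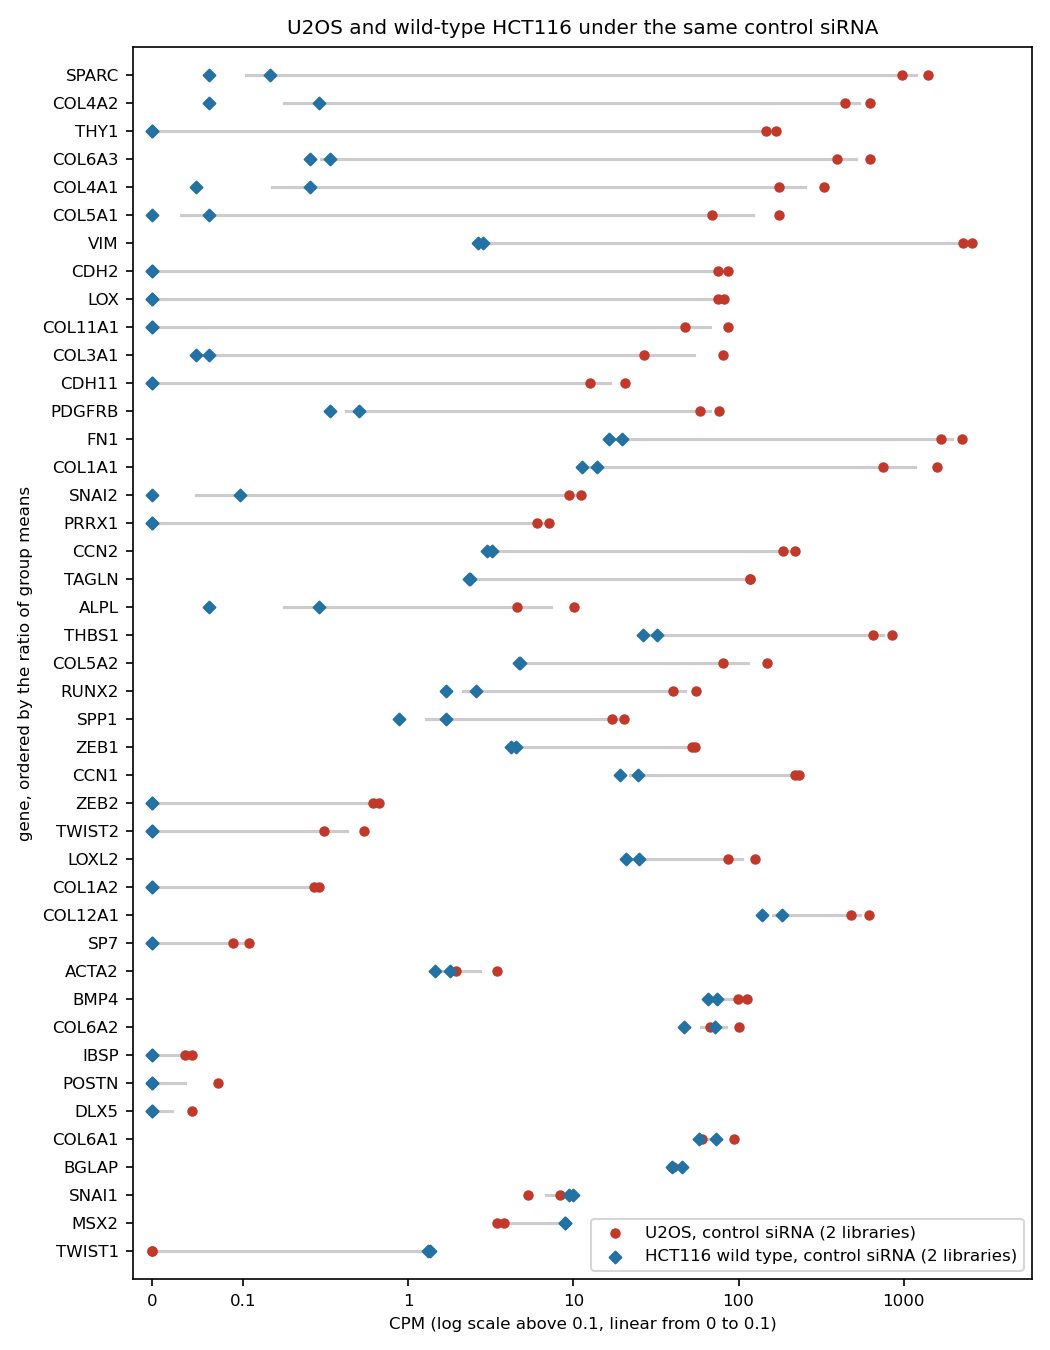
Level of the 43 genes in CPM (horizontal axis, logarithmic above 0.1 and linear below) in the 2 U2OS libraries (circles) and the 2 wild-type HCT116 libraries (diamonds) under control siRNA; the grey line joins the group means. Genes are ordered by the ratio of the means, from SPARC at the top to TWIST1, the gene listed at 0 in U2OS, at the bottom; BGLAP stands for the joined row.

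Among the cytoskeletal and surface proteins, VIM (NCBI gene 7431), which encodes the intermediate filament protein of mesenchymal cells, had the highest per-length level (TPM) of all 43 genes in U2OS. It was at 2585 and 2299 CPM in U2OS under control siRNA and at 2.65 and 2.83 CPM in HCT116, a log2 difference of 9.80 ± 0.24 (SE; adjusted p = 2.71e-12, edgeR). The ratio of its summed counts, each over library totals corrected for composition, was 890, with an exact 95% counting interval of 732 to 1094. Such intervals cover counting error only.

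CDH2, the gene of N-cadherin, was at 75 and 86.8 CPM in U2OS and had no read in either HCT116 library, which makes it at least 997-fold higher against a floor of 3 counts over the group. THY1, a glycoprotein of fibroblast and stromal surfaces, stood at 147 and 168 CPM in U2OS and at 0 in HCT116, at least 1939-fold higher. CDH11, the cadherin of osteoblasts, was at 12.6 and 20.6 CPM against 0, at least 208-fold higher. The adjusted p was 6.22e-09 for CDH2, 2.72e-10 for THY1 and 1.92e-07 for CDH11 (edgeR). Across all 8 HCT116 libraries the summed counts were 3 for CDH2, 1 for THY1 and 1 for CDH11, so near absence held in every HCT116 group. PDGFRB, a receptor for platelet-derived growth factor on stromal cells, was 167-fold higher in U2OS (interval 101 to 300). TAGLN, an actin-binding protein of smooth muscle, was 49.8-fold higher (40.2 to 62.3). ACTA2, smooth muscle actin, was low in both lines, at 1.95 and 3.45 CPM against 1.78 and 1.45, and did not pass the test (log2 0.74 ± 0.33, adjusted p = 0.0606, edgeR).

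All 7 tested matrix proteins and crosslinkers were called higher in U2OS. FN1, fibronectin, was at 1683 and 2254 CPM in U2OS and 16.5 and 19.6 in HCT116, a ratio of 112 (104 to 121). SPARC, a collagen-binding glycoprotein abundant in bone (osteonectin), was at 979 and 1405 CPM against 0.144 and 0.0629, the latter from 4 reads in all. Its ratio was 11133, with a counting interval of 4348 to 40860, and its log2 difference 13.34 ± 0.51 (adjusted p = 1.02e-10, edgeR). SPARC had the widest ratio among members with reads in both lines, and its HCT116 level rests on single reads. THBS1, thrombospondin-1, was 26.5-fold higher in U2OS (24.9 to 28.2).

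The crosslinking enzymes split. LOX, lysyl oxidase, was at 81.7 and 75 CPM in U2OS and at 0 in all 8 HCT116 libraries, at least 954-fold higher under control siRNA (adjusted p = 4.3e-09, edgeR). Its paralogue LOXL2 was present in both lines, at 86 and 125 CPM against 25 and 20.8 (log2 2.20 ± 0.31, adjusted p = 2.28e-05, edgeR). HCT116 therefore carried LOXL2 mRNA with no detected LOX. POSTN, periostin, was at 0 to 0.237 CPM in U2OS and at 0 in HCT116, and was not tested.

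CCN1 and CCN2 encode related secreted proteins that are well known targets of the YAP coactivators. CCN1 was at 221 and 232 CPM in U2OS and 19.2 and 24.6 in HCT116 (log2 3.37 ± 0.22, adjusted p = 1.14e-08, edgeR). CCN2 was at 185 and 221 CPM against 2.98 and 3.21 (log2 6.04 ± 0.30, adjusted p = 8.08e-10, edgeR). On the per-length TPM scale CCN1 was 0.874 to 1.24 times CCN2 in the 8 U2OS libraries and 4.8 to 9.85 times CCN2 in the 8 HCT116 libraries. The pair was near balance in U2OS, and CCN1 was the larger in every HCT116 library.

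The difference between the lines varied in size among the collagen chains, also within a collagen type. Of the 12, 11 were tested and 9 were called higher in U2OS. The 2 that were not called are COL6A1, at 60.3 and 94.2 CPM against 73.2 and 57.6 (log2 0.24 ± 0.26, adjusted p = 0.426, edgeR), and COL6A2, at 67.2 and 100 against 72 and 46.9 (0.49 ± 0.31, adjusted p = 0.168). Both encode chains of type VI collagen, a filament-forming collagen found around many cell types, and their values overlapped between lines.

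The third type VI chain, COL6A3, was at 397 and 629 CPM in U2OS and 0.337 and 0.252 in HCT116, 1749-fold higher (978 to 3505). In TPM, COL6A3 was 1.43 to 2.88 times COL6A1 in U2OS but 0.0017 to 0.00407 times COL6A1 in HCT116. HCT116 cells thus held mRNA of 2 of the 3 chains and almost none of the third.

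The chains of type I collagen were split in both lines, with COL1A1 above COL1A2 in every library. COL1A1 (NCBI gene 1277) was at 746 and 1592 CPM in U2OS and 13.9 and 11.3 in HCT116 (log2 6.53 ± 0.49, adjusted p = 3.98e-08, edgeR). COL1A2 was at 0.266 and 0.287 CPM in U2OS and at 0 in HCT116, at least 3.39-fold higher, and had too few reads for the test. Over the 8 U2OS libraries COL1A1 ran from 138 to 670 TPM and COL1A2 from 0 to 0.46 TPM. Over the 8 HCT116 libraries COL1A1 ran from 1.93 to 3.75 TPM and COL1A2 was at 0. The U2OS libraries thus held abundant mRNA of 1 type I chain with almost none of its partner, in every group.

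The fibrillar chains COL3A1, COL5A1 and COL11A1 had 2, 1 and 0 reads in the wild-type HCT116 control libraries. Their U2OS levels were 26.8 and 80.2 CPM for COL3A1, 69.2 and 177 for COL5A1, and 47.3 and 86.9 for COL11A1. The ratio was 1032 for COL3A1 (286 to 8528) and 4720 for COL5A1 (847 to 186458), and COL11A1 was at least 846-fold higher (adjusted p = 2.38e-08, edgeR). COL5A2 kept reads in HCT116, at 4.67 and 4.72 CPM against 80.7 and 148. COL12A1, which decorates fibrils, also kept reads in HCT116, at 138 and 184 against 480 and 616 in U2OS (log2 1.77 ± 0.25, adjusted p = 2.2e-05, edgeR).

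**Figure D2:**
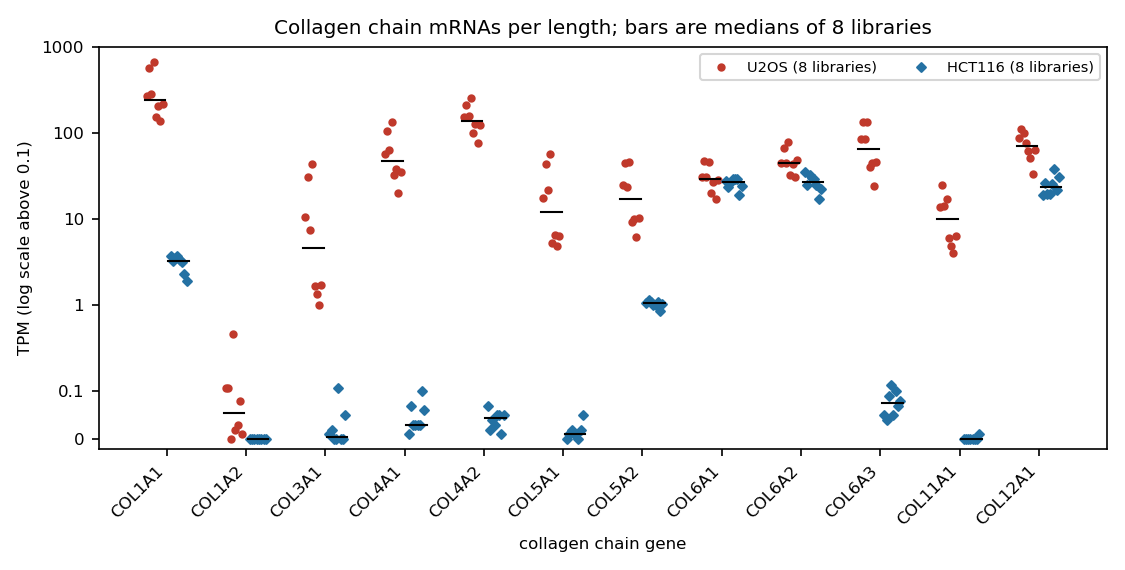
Level of the 12 collagen chain genes in TPM, a per-length scale (vertical axis, logarithmic above 0.1 and linear below), in the 8 U2OS libraries (circles) and 8 HCT116 libraries (diamonds); bars are medians. COL6A1 and COL6A2 lie at like levels in both lines, COL6A3 and the type IV chains are near 0 in HCT116, and COL1A2 is near 0 in both.

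COL4A1 and COL4A2, the chains of basement membrane collagen, lie head to head on chromosome 13 and share a promoter region. In the RefSeq table of build GRCh38.p14 their starts are 127 bases apart, and the windows of 250 bases before to 50 after each start overlap by 226 bases. The COL4A1 window, chr13:110307108-110307407 on the minus strand, is shown because both genes are read from it. Capitals mark the 126 bases between the start sites.
COL4A1: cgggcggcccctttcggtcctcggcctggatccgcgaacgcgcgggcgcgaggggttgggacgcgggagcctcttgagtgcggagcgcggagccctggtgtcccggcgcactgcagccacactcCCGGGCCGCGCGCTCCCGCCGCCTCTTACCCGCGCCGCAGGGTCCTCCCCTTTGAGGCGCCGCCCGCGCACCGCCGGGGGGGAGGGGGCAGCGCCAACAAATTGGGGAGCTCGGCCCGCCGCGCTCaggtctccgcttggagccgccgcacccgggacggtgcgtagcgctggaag
Both genes were near 0 in HCT116, at 0.0481 and 0.252 CPM for COL4A1 and 0.289 and 0.0629 for COL4A2 under control siRNA. In U2OS, COL4A1 was at 175 and 330 CPM and COL4A2 at 444 and 626. COL4A1 was 1910-fold higher in U2OS (818 to 5883) and COL4A2 2854-fold (1385 to 7100), with intervals that overlap. COL4A2 exceeded COL4A1 in TPM in all 8 U2OS libraries, by 1.89 to 3.81 times.

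Among the mesenchymal transcription factors, the TWIST pair differed in which paralogue each line held. TWIST1 had no read in any of the 8 U2OS libraries, which limits it to 0.0191 CPM by a floor of 3 counts over the 8, and was at 1.35 and 1.32 CPM in wild-type HCT116 under control siRNA. It was at least 22.5-fold higher in HCT116 (adjusted p = 0.000113, edgeR). TWIST2 showed the reverse, at 0.31 and 0.539 CPM in U2OS and at 0 in all 8 HCT116 libraries, at least 5.33-fold higher in U2OS (adjusted p = 0.0022). Both TWIST genes were at low levels in the line that had them.

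SNAI1 was present in both lines, at 5.27 and 8.27 CPM in U2OS and 9.96 and 9.44 in HCT116, and was not called (log2 -0.51 ± 0.25, adjusted p = 0.0857, edgeR). SNAI2, also known as SLUG, was at 9.43 and 11.1 CPM in U2OS and had 2 reads in the wild-type HCT116 control libraries, a ratio of 190 (52.4 to 1575). ZEB1 was at 54.2 and 52.2 CPM against 4.19 and 4.47 (log2 3.62 ± 0.40, adjusted p = 2.26e-06, edgeR). ZEB2 was at 0.664 and 0.611 CPM in U2OS and at 0 in HCT116, at least 7.76-fold higher (adjusted p = 0.000953). In TPM, ZEB1 exceeded ZEB2 by 51.6 to 144 times in U2OS. PRRX1, a homeobox factor of limb and stromal mesenchyme, was at 7.08 and 5.97 CPM in U2OS and at 0 in all 8 HCT116 libraries, at least 79.1-fold higher.

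Of the 9 bone genes, 6 were tested, 4 were called higher in U2OS and 1 lower. RUNX2 was at 40 and 55.4 CPM in U2OS and 1.68 and 2.58 in HCT116, 23.4-fold higher (18.6 to 29.8). SP7, the factor that acts after RUNX2, had 6 reads in all 8 U2OS libraries together, and IBSP, bone sialoprotein, also had 6. DLX5, a homeobox factor of bone, had 2. ALPL, alkaline phosphatase, was at 10.1 and 4.56 CPM against 0.289 and 0.0629, and SPP1, osteopontin, at 20.3 and 17.1 against 1.68 and 0.881. U2OS thus carried RUNX2, ALPL and SPP1 mRNA with SP7, IBSP and DLX5 at single reads.

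MSX2, a homeobox target of BMP signalling, was at 3.45 and 3.77 CPM in U2OS and 8.86 and 8.93 in HCT116 (log2 -1.30 ± 0.23, adjusted p = 0.000234, edgeR). The BMP ligand BMP4 was at 99 and 112 CPM in U2OS against 74.5 and 65.2 in HCT116 (log2 0.60 ± 0.14, adjusted p = 0.00228). With all 8 libraries of each line the BMP4 difference was -0.03 (adjusted p = 0.719), with the U2OS plasmid libraries at 54.4 to 65.2 CPM. The joined BGLAP row was at 39.3 and 40.2 CPM against 45.5 and 39.8 and was not called (log2 -0.10 ± 0.18, adjusted p = 0.643).

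**Figure D3:**
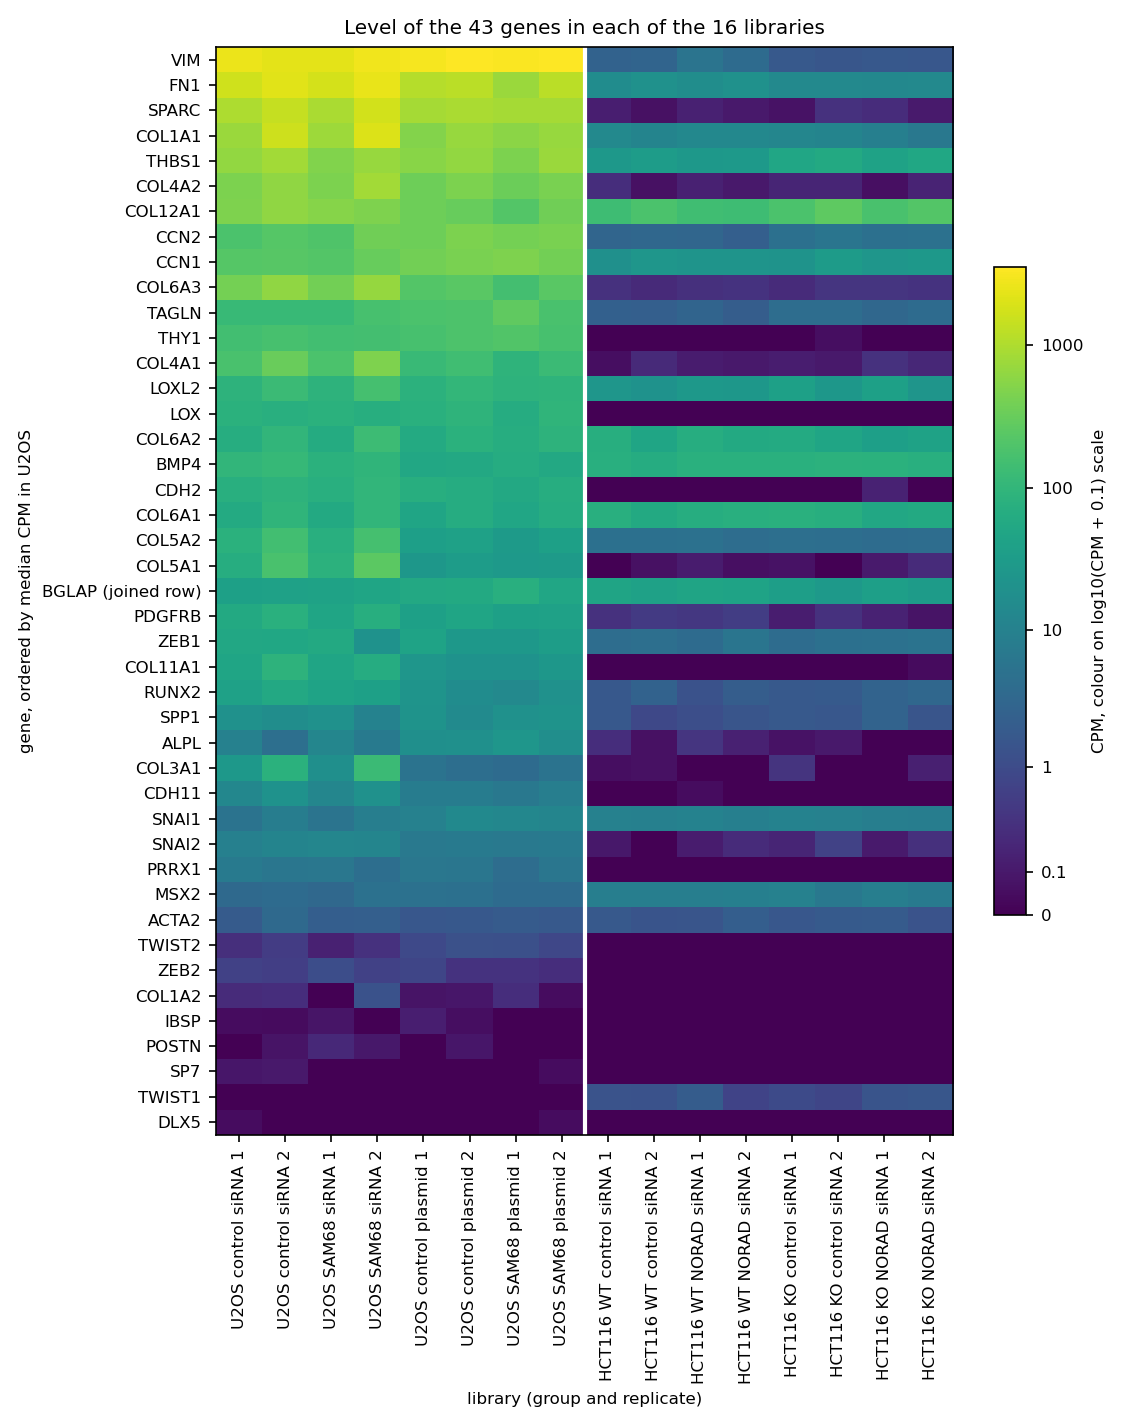
Level of the 43 genes (rows, ordered by median CPM in U2OS) in each of the 16 libraries (columns, by group and replicate); colour gives CPM on a logarithmic scale with 0.1 added. The left 8 columns are U2OS and the right 8 HCT116 and most genes change colour at the white line between them, while COL6A1, COL6A2, BMP4 and the joined BGLAP row have like colours throughout.

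Ranked per length by the median over a line's libraries, VIM led in U2OS at 2686 TPM, ahead of SPARC at 529, FN1 at 333 and TAGLN at 309. VIM was above SPARC and SPARC above FN1 within each of the 8 libraries, although the ranges of SPARC (353 to 976) and FN1 (122 to 559) overlap over the 8. FN1 was above TAGLN (241 to 370) in the 4 siRNA libraries and below it in the 4 plasmid libraries. In HCT116 the order at the top differed by genotype. The joined BGLAP row was above BMP4 in all 4 wild-type libraries, at 71.9 to 76.9 against 63.9 to 72.7 TPM, and BMP4 was above the joined row in all 4 knockout libraries, at 69.5 to 82.6 against 53.7 to 58.8. COL6A2 at a median of 27.3 TPM and COL6A1 at 27.1 came next by median, followed by COL12A1 at 23.7. BMP4 was above COL6A1 and COL6A2 in every HCT116 library, and COL6A1 and COL6A2 overlapped. COL12A1, at 19.3 to 37.9 TPM, was above both in some HCT116 libraries and below both in others.

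Related genes of the pathways were counted in the same comparison. Of 19 genes that modify, fold or crosslink collagen, 10 were called higher in U2OS and 3 lower, with a median log2 difference of 0.97. SERPINH1, the collagen chaperone HSP47, was higher (1.55 ± 0.20), and P4HB, a subunit of prolyl hydroxylase, was lower (-1.12 ± 0.19). Of 18 tested other matrix proteins, 16 were higher and 2, VCAN (-5.63 ± 0.31) and COL18A1 (-4.10 ± 0.27), lower. The counts were 10 higher and 2 lower of 12 matrix proteases and inhibitors, 11 and 2 of 17 TGF-beta pathway genes, 8 and 4 of 17 tested BMP pathway genes, and 9 and 1 of 15 targets of YAP and SRF. All 13 tested epithelial and colon markers were lower in U2OS. Of the 17 listed, 6 passed the filter within U2OS and 13 within HCT116. For genes of any of these lists that passed through 1 line alone, the filter set the direction. Over all tested genes 35.6% were called higher and 29.8% lower, and no list was tested against these shares.

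In U2OS, the comparison of SAM68 siRNA with control siRNA asks whether these genes follow the level of SAM68. None of the 37 tested genes was called, none had an unadjusted p below 0.05 in edgeR, and none was called by DESeq2; 0.00639% of all genes were called. Without replicate 1 of SAM68 siRNA, 12 of 38 members had an unadjusted p below 0.05, still with none called, and the number over all genes went from 166 to 1899. The median log2 difference was 0.05, against -0.01 for all genes, and 4 genes had groups that did not overlap, against 19.5% of all genes. The smallest p belonged to BMP4, at 80.7 and 95.6 CPM against 99 and 112 (log2 -0.31 ± 0.18), CCN2, at 200 and 366 against 185 and 221 (0.42 ± 0.26), and THBS1, at 489 and 704 against 652 and 849 (-0.38 ± 0.27). Each had an adjusted p of 1 in edgeR. The median of the members ran from -0.248 without replicate 2 of SAM68 siRNA to 0.287 without replicate 2 of control siRNA, so single libraries set its sign.

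The SAM68 plasmid against the empty plasmid gave the same count. None of the 37 genes was called in edgeR or in DESeq2, with 0.00639% of all genes called, and none had an unadjusted p below 0.05. The median was -0.03 against 0.01 for all genes, and 3 genes had groups that did not overlap, against 18.3% of all genes. MSX2 was at 3.73 and 3.85 CPM against 4.83 and 4.71 (log2 -0.33 ± 0.26), ZEB2 at 0.365 and 0.293 against 0.781 and 0.363 (-0.75 ± 0.60), and FN1 at 745 and 1209 against 1103 and 1223 (-0.25 ± 0.26), each with an adjusted p of 1 in edgeR. FN1 turned to 0.06 without replicate 1 of the SAM68 plasmid. In both SAM68 comparisons no gene of the collagen-making, matrix, protease, TGF-beta, BMP or YAP lists was called in edgeR, and 2 of 18 other matrix genes under siRNA had an unadjusted p below 0.05.

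More members were called between the control groups of U2OS than between either control and its SAM68 group. Under control plasmid against control siRNA, 3 of 37 genes were called, all lower, where 1.3% of all genes were called and 1.03% were called lower. COL11A1 was at 24.9 and 20.8 CPM against 47.3 and 86.9 (log2 -1.65 ± 0.30, adjusted p = 0.0388, edgeR). RUNX2 was at 22.8 and 16.3 against 40 and 55.4 (-1.38 ± 0.27, adjusted p = 0.0468). BMP4 was at 54.4 and 56.3 against 99 and 112 (-1.02 ± 0.18, adjusted p = 0.0363). The groups did not overlap for any of these 3 genes.

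All 11 tested collagen chains had a negative difference in that comparison, with a median of -1.02, against -0.47 for the 37 members and -0.11 for all genes. The summed level of the collagen members was 1763 and 2116 CPM under control plasmid and 2593 and 4480 under control siRNA. COL3A1 had the widest, at 5.26 and 4.26 CPM against 26.8 and 80.2, but was not called (-3.59 ± 0.81, adjusted p = 0.063, edgeR). Of the 37 genes, 21 had an unadjusted p below 0.05, as had 22.8% of all genes. The groups did not overlap for 28, against 66.3% of all genes. The 3 calls were not stable: leaving out either plasmid library or replicate 2 of control siRNA left 0 members called, leaving out replicate 1 of control siRNA left 1, and DESeq2 called 11. With the replicate number as a block 5 were called, and RUNX2 was not among them (-1.37, adjusted p = 0.056).

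In a comparison added after these data were seen, all 4 plasmid libraries were set against all 4 siRNA libraries of U2OS in the same fit. Here 14 members were called lower with plasmid and 6 higher, where 14.7% and 10.1% of all 15658 tested genes were called lower and higher. This shares its control libraries with the comparison above and is no independent support of it. The plasmid and siRNA groups differ in reagent and in anything else that differed between them, which the labels do not state. These cannot be told apart.

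Of the 14 members lower with plasmid, 8 are collagen chains, and 5 of these, COL1A1, COL3A1, COL5A1, COL5A2 and COL11A1, form fibrils. COL3A1 was at 3.87 to 5.28 CPM in the plasmid libraries and 18.7 to 125 in the siRNA libraries (log2 -3.78, adjusted p = 0.00466, edgeR). COL5A1 was at 25.4 to 32.2 against 69.2 to 254 (-2.35, adjusted p = 0.00524). COL5A2 was at 30.4 to 40 against 74.4 to 165, COL6A3 at 155 to 247 against 382 to 681, and FN1 at 745 to 1223 against 1683 to 2515, and none of the 5 overlapped. RUNX2 was at 13.8 to 22.8 CPM against 39.4 to 55.4 (-1.36, adjusted p = 0.00406). BMP4, at 54.4 to 65.2 against 80.7 to 112, SNAI2, CDH11, PDGFRB, COL1A1, COL4A1, COL11A1 and COL12A1 make up the rest of the 14.

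The 6 members higher with plasmid hold no collagen chain. CCN1 was at 384 to 477 CPM against 218 to 312 (log2 0.73, adjusted p = 0.00999, edgeR), and CCN2 at 358 to 450 against 185 to 366 (0.71, adjusted p = 0.0245), with 1 siRNA library inside the plasmid range. TAGLN was at 173 to 271 against 117 to 171 (0.60, adjusted p = 0.0336). ALPL was at 18 to 24.4 against 4.56 to 12.2 (1.19, adjusted p = 0.0177), so the bone genes moved apart, with RUNX2 and BMP4 lower and ALPL higher. SNAI1 was at 10 to 14.3 against 5.27 to 8.82 (0.73, adjusted p = 0.0379), while its paralogue SNAI2 was at 6.72 to 7.43 against 9.43 to 12.2 (-0.73, adjusted p = 0.011). TWIST2 completes the 6, at 0.838 to 1.27 against 0.158 to 0.539. Of 35 members with a mean of at least 1 CPM, 16 were lower in all plasmid libraries and 7 higher in all. Over all 15658 tested genes, without that cut on level, the shares were 15.6% and 18%.

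**Figure D4:**
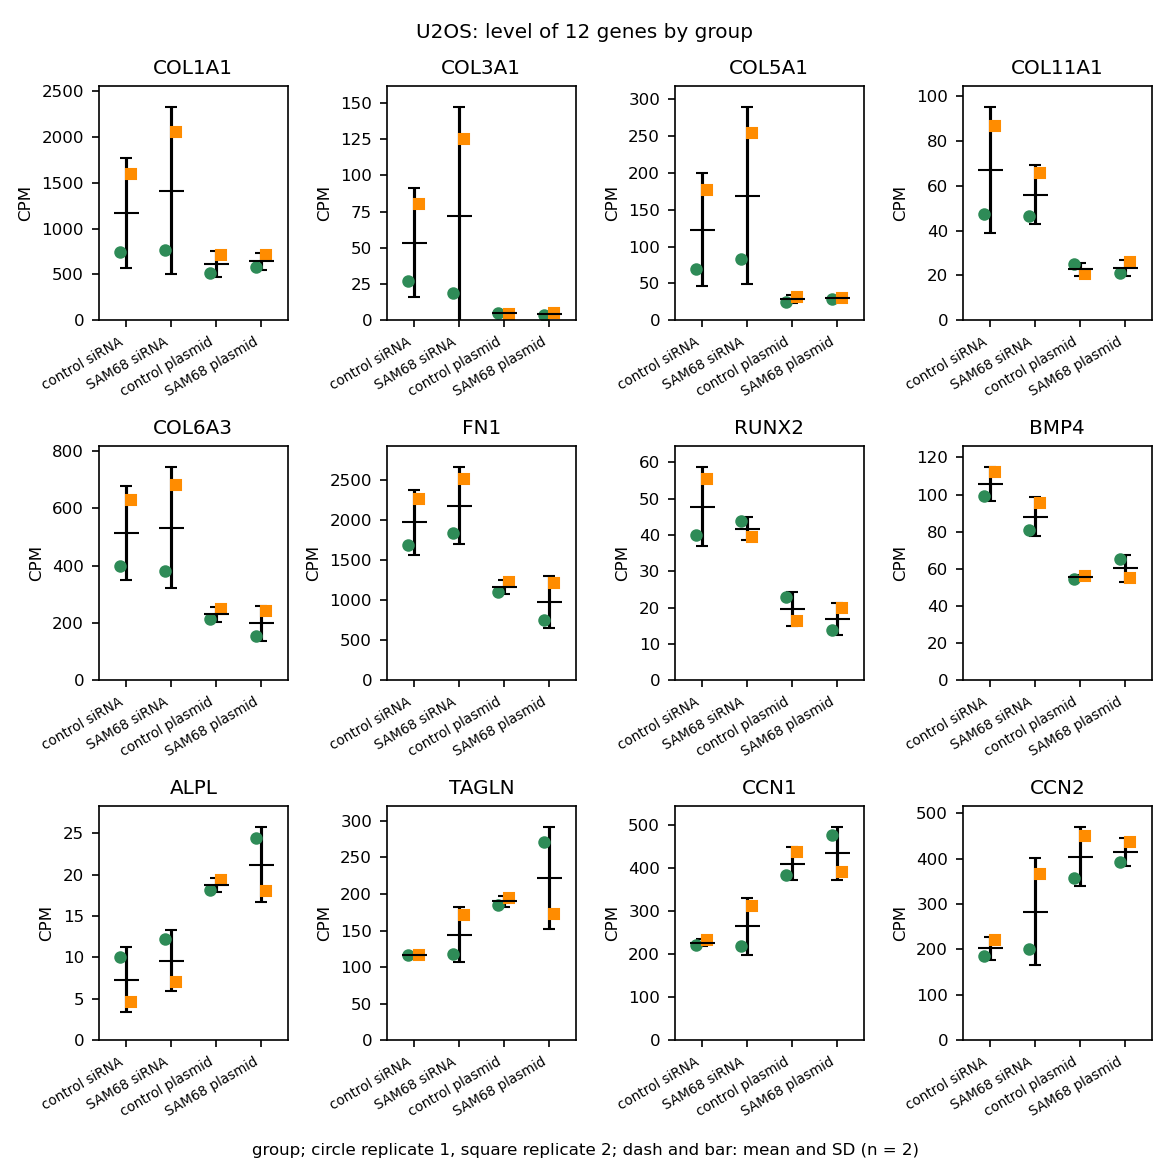
CPM (vertical axes from 0) of 12 genes in the 4 U2OS groups; circles are replicate 1, squares replicate 2, and the dash and bar are mean and SD (n = 2). Collagens, FN1, RUNX2 and BMP4 sit lower in both plasmid groups and ALPL, TAGLN, CCN1 and CCN2 higher, while replicate 2 lies far above replicate 1 for the collagens in both siRNA groups.

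Other genes moved with these. Among the 6 fibroblast markers, 5 were tested and all had a negative difference of control plasmid from control siRNA, with LUM (lumican) and PDGFRA called (-2.27 ± 0.27 and -1.81 ± 0.21). Their sum was 579 and 779 CPM under control plasmid and 900 and 1837 under control siRNA; COL1A1, COL3A1 and PDGFRB are members of both lists. DCN was not tested. The 17 epithelial markers summed to 965 and 1079 CPM under control plasmid and 643 and 678 under control siRNA. Most of that difference was KRT18, a keratin, at 639 and 683 against 342 and 295 CPM and called higher (0.97 ± 0.18), while EPCAM was at 4.33 and 4.49 against 4.96 and 5.89 and CDH1 at 2.2 and 2.54 against 2.43 and 1.72, neither called. FBN1, MMP13 and BMPR2 were the called genes of the matrix, protease and BMP lists besides LUM, all lower (-2.05 ± 0.40, -2.38 ± 0.30 and -1.27 ± 0.23). No TGF-beta, YAP or collagen-making gene was called in edgeR, with 8 of 17, 3 of 15 and 5 of 19 at an unadjusted p below 0.05. The part of these markers in the result was not tested.

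The collagen chains also varied between replicates of the siRNA groups. Replicate 2 was higher than replicate 1 for 11 of 11 chains with at least 1 CPM under control siRNA, with a median log2 ratio of 0.87, and for 10 of 11 under SAM68 siRNA, with a median of 1.02. Under control plasmid it was higher for 8 of 11 (median 0.23) and under SAM68 plasmid for 11 of 11 (0.37). The medians over all genes lay between -0.00 and 0.11. COL3A1 shows the extent, at 18.7 and 125 CPM in the SAM68 siRNA pair. Replicate 2 was the deeper library in all 4 U2OS groups, and the part of depth was not tested.

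In HCT116, knockout was compared with wild type over both siRNAs, 4 libraries against 4. Of 21 tested members, 4 were called higher in the knockout and 3 lower, where 17.6% of all genes were called, 11% higher and 6.62% lower. The groups did not overlap for 6 members, against 18.9% of all genes. The median log2 difference was -0.03, and -0.01 for all genes, so the members moved in both directions.

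THBS1 was at 48.6, 58.1, 42 and 51.8 CPM in the knockout and 26.2, 32.1, 26.7 and 28.7 in wild type, 50.1 ± 6.67 against 28.4 ± 2.68 (SD, n = 4; log2 0.83 ± 0.11, adjusted p = 0.00382, edgeR). CCN2 was at 4.63 to 5.76 CPM against 2.33 to 3.21 (0.80 ± 0.16, adjusted p = 0.0148). TAGLN was at 3.16 to 4.22 against 2.06 to 2.85 (0.68 ± 0.17, adjusted p = 0.0281). COL12A1 was at 174 to 262 against 137 to 184 (0.49 ± 0.13, adjusted p = 0.0322). All knockout libraries lay above all wild-type libraries for the first 3 genes, and COL12A1 overlapped.

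VIM was lower in the knockout, at 1.57 to 1.75 CPM against 2.65 to 5.5 (log2 -1.09 ± 0.19, adjusted p = 0.0103, edgeR). FN1 was at 13 to 13.9 against 16.5 to 20.1 (-0.41 ± 0.10, adjusted p = 0.0275). The joined BGLAP row was at 29.3 to 36.3 against 39.8 to 45.5 (-0.38 ± 0.10, adjusted p = 0.0293). None of these overlapped. COL1A1 was not called, at 6.61 to 12.3 against 11.3 to 13.9 (-0.42 ± 0.13, adjusted p = 0.0519), nor was CCN1 (0.27 ± 0.13, adjusted p = 0.165).

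**Figure D5:**
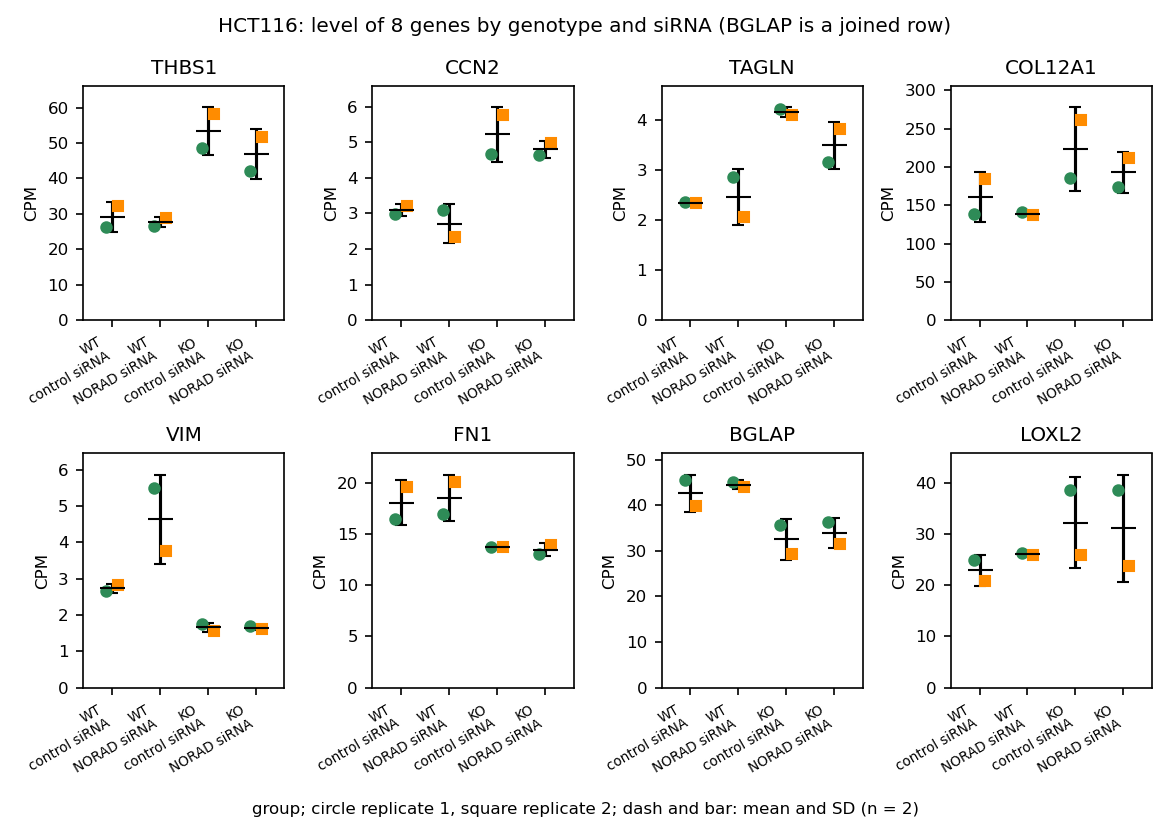
CPM (vertical axes from 0) of 8 genes in the 4 HCT116 groups, by genotype and siRNA; circles are replicate 1, squares replicate 2, and the dash and bar are mean and SD (n = 2). THBS1, CCN2 and TAGLN are higher in both knockout groups and VIM, FN1 and the joined BGLAP row lower, COL12A1 overlaps between genotypes, and LOXL2, higher in replicate 1 of both knockout groups, was not called.

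The calls rest on the libraries unequally. THBS1 was called whichever library was left out, and missed the threshold only with the control siRNA libraries alone (log2 0.88, adjusted p = 0.0583, edgeR). With those libraries no member was called, and 43 genes were called in all (0.312%). Of the 21 members, 7 had an unadjusted p below 0.05, as had 1269 of all 13764 genes. The member count was 1 without replicate 1 of wild type with NORAD siRNA, 2 without its replicate 2, 2 without replicate 2 of knockout with control siRNA, 2 and 3 without replicates 1 and 2 of knockout with NORAD siRNA, 4 without replicate 1 and 9 without replicate 2 of wild type with control siRNA, and 10 without replicate 1 of knockout with control siRNA. The first of these settings also cut the calls over all genes from 2424 to 201. DESeq2, which tested 34 members, called 3 higher and 4 lower, and TAGLN lost its call there (adjusted p = 0.0518). VIM lost its call without replicate 1 of wild type with NORAD siRNA (-0.94, adjusted p = 0.0657), the library with its highest level.

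Promoter windows of CCN2, THBS1 and COL12A1 are shown because these are the genes called higher in the knockout that have a window in the RefSeq table (GRCh38.p14), and all 3 hold GGAATG, the core of the site that TEAD factors bind. Capitals mark each match. The window of CCN2 is chr6:131951323-131951622 on the minus strand, that of THBS1 chr15:39580829-39581128 on the plus strand, and that of COL12A1 chr6:75206004-75206303 on the minus strand.
CCN2: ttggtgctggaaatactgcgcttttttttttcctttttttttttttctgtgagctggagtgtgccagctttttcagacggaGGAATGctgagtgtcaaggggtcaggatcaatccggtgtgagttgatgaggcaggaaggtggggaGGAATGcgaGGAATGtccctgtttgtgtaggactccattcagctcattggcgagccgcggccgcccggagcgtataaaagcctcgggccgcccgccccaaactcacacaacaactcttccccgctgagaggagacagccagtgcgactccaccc
THBS1: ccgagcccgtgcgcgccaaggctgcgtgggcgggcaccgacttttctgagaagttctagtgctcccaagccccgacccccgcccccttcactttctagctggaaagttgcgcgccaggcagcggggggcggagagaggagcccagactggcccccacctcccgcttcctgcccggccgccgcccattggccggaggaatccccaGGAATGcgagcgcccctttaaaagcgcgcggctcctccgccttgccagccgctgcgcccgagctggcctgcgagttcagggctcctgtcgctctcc
COL12A1: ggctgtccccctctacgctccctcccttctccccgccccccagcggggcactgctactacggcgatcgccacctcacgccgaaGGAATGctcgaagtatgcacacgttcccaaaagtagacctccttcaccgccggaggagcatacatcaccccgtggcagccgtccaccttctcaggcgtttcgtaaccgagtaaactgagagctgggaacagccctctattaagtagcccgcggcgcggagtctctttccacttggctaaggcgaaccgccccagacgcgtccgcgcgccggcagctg
CCN2 has 3 matches, which start 169, 104 and 95 bases before its start site, and THBS1 and COL12A1 have 1 each. VIM and FN1, called lower, have no match in their windows, and the joined BGLAP row was left out here because its reads come from more than 1 gene. ACTA2, BMP4, RUNX2 and ZEB1 also hold GGAATG and were tested but not called in the knockout (adjusted p = 0.937, 0.246, 0.379 and 0.833, edgeR). The 28 members with a window have 44 windows, of which 8 hold GGAATG on either strand (18.2%), against 14% of all 35116 windows of the same length. By gene, 8 of the 28 members hold it (28.6%). This share is not comparable with the 14%, because a gene can have several windows, and the share of all genes was not taken. The windows shown were chosen after the calls were seen, and a link of the motif to the calls was not tested. CACCTG, the E-box that SNAI and ZEB factors bind, was in 5 of the 44 and 20.6% of all windows, and a CArG box, the SRF site, in 0 of 44 and 1.29%. A match is only a run of letters.

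Related genes moved in both directions in the knockout. Of 12 tested YAP and SRF targets, F3 (tissue factor) was the 1 called, higher at 204 to 246 CPM against 109 to 128 (log2 0.92 ± 0.09, adjusted p = 0.000935, edgeR). Of 15 TGF-beta pathway genes, SMAD2, SMAD7 and SKIL were higher (0.35 ± 0.08, 0.66 ± 0.14 and 0.55 ± 0.10) and LTBP4 lower (-0.62 ± 0.15). Of 13 BMP pathway genes, ID2, SMAD5 and BMPR1A were higher and BMP6 lower, of 8 other matrix genes VCAN and COL7A1 were higher and FBN1 lower, and of 7 proteases and inhibitors PLAU was higher and MMP14 and TIMP3 lower. Of 19 collagen-making genes, LOXL4 was higher (0.87 ± 0.26) and LOXL3 lower (-0.65 ± 0.13). Of 13 epithelial markers EPCAM was called, higher by 0.32 ± 0.07. The epithelial sum was 4510 to 5612 CPM in the knockout and 4137 to 4960 in wild type, and its part in the result was not tested.

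NORAD siRNA called none of the 21 tested members in wild-type HCT116, by edgeR or DESeq2, where 0.00727% of all genes were called. The median was 0.06 against 0.00, and 1 member, VIM, had an unadjusted p below 0.05, as had 1.32% of all genes. VIM was at 5.5 and 3.76 CPM under NORAD siRNA and 2.65 and 2.83 under control siRNA (log2 0.77 ± 0.25, adjusted p = 0.999, edgeR). BMP4 (0.13) and COL12A1 (-0.21) had the next smallest p, also at an adjusted p of 0.999, and 3 members had groups that did not overlap, against 26.7% of all genes. COL12A1 turned to 0.00452 without replicate 2 of wild type with control siRNA.

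In the knockout, NORAD siRNA also called none of the 21 in either tool, with 0.00727% of all genes called. An unadjusted p below 0.05 was found for 3 members, against 11.3% of all genes. The groups did not overlap for 9 members, against 43.2% of all genes. COL1A1 was at 9.15 and 6.61 CPM against 12.3 and 11.1 (log2 -0.57 ± 0.19, adjusted p = 0.428, edgeR). COL6A1 was at 54.5 and 58.6 against 76.5 and 70.5 (-0.37 ± 0.13, adjusted p = 0.428). RUNX2 was at 2.66 and 3.21 against 1.75 and 1.82 (0.73 ± 0.32, adjusted p = 0.44). The groups did not overlap for these 3 genes, yet none passed the test.

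Whether NORAD siRNA acted differently in the 2 genotypes was tested as an interaction. It was called for none of the 21, and for 0% of all genes, in edgeR, and for no member in DESeq2. The same 3 members had an unadjusted p below 0.05, as had 7.61% of all genes. The difference was -0.49 ± 0.19 for COL6A1, -0.64 ± 0.26 for COL1A1 and 1.05 ± 0.47 for RUNX2, each with an adjusted p of 0.642. VIM, the member with the smallest p in wild type, had a difference of -0.76 ± 0.38 (adjusted p = 0.642). In these 3 NORAD comparisons the pathway lists held no called gene in edgeR, and at most 2 genes of a list had an unadjusted p below 0.05. At this spread, with a biological coefficient of variation of 11.3% in HCT116 and 20% in U2OS, the NORAD and SAM68 comparisons within a line did not show a change of these genes, which does not show that they are equal.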

How the data were processed

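The 16 libraries were RSEM gene tables, 1 per library with no pooling, per the file headers. The submitters' processing notes name STAR, RSEM and hg19. Tool versions and the strand setting are not given in the sources used, so overlapping, antisense and near-identical genes are uncertain. The expected counts, estimated read counts deposited by the authors without normalization, were rounded for the tests. TPM, per-length values deposited by the authors, served to set genes against each other, and the effective length in bases, also deposited by the authors, served as an offset in 1 alternative. FPKM was not used here. Depth was 11349545 to 27387412 expected counts per library. Replicates differed by more than sampling noise (chi-square per gene 7.83 to 60.1 over genes with at least 20 counts), so all 16 were kept as separate samples.

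Rows were matched to symbols by NCBI gene number. Groups came from the labels. Low genes were removed by filterByExpr, and TMM factors scaled the libraries. Tests were edgeR's quasi-likelihood tests with glmQLFit and glmQLFTest (R 4.3.3, limma 3.58.1, edgeR 4.0.16), with Benjamini-Hochberg adjustment over all tested genes and calls at an adjusted p below 0.05. The comparison of lines was fitted on all 16 libraries (16444 genes); those within a line used its 8 libraries in 4 groups and 1 common estimate of spread (15658 genes in U2OS, 13764 in HCT116). Several comparisons share libraries and are not independent. The smallest two-sided p of an exact permutation test with 2 libraries a group is 0.333. Errors are SE for log2 differences and SD for levels. Ratios between lines are of summed counts over library totals scaled by the TMM factors, with exact 95% intervals. A group with 0 counts was set at a floor of 3. The filter kept 38, 37 and 21 of the 43 genes in the comparison of lines, U2OS and HCT116.

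The members and the related gene lists (collagen making, other matrix proteins, proteases, TGF-beta, BMP, YAP and SRF targets, and epithelial, bone, fibroblast, blood and endothelial markers) were chosen with earlier results of these data known. Blood markers summed to 0.848 to 3.79 CPM, endothelial markers to 0.283 to 4.86 and mature bone markers to 62.7 to 120 in U2OS and 32.2 to 48 in HCT116, where IBSP, SP7, SOST and MEPE were at 0 and the joined BGLAP row, which cannot be assigned to osteocalcin, made up 29.3 to 45.5 CPM. Full statistics were given, in the comparison of lines, to the 5 largest called changes in each direction with at least 5 CPM and to paralogue pairs (of the lower ones MSX2 alone reached 5 CPM); within a line, to at most 6 called members and the 3 smallest p. Other members named were chosen after their values were seen. Alternatives were DESeq2 1.42.0, RLE scaling, no filter, other sets of libraries, a replicate block, the length offset and leaving out each library. Promoter windows are RefSeq sequences of GRCh38.p14, another build than the files', and served for sequence only. The fit was tested on simulated counts.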

Additional observations from a re-analysis of the deposited data

How the results depend on the processing

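The comparison of lines called 33 members, and 33 to 34 under every alternative run, DESeq2, RLE scaling, no filter and the removal of each library included. The 0 calls of both SAM68 comparisons, both NORAD comparisons and their difference stayed at 0 in every alternative. With a library left out, 1 to 12 members had an unadjusted p below 0.05 under SAM68 siRNA and 0 to 2 under the SAM68 plasmid. Of 58 named gene results, 597 of 651 alternatives kept direction and side of the threshold, 50 lost a call and 4 reversed: BMP4 between lines with all 8 libraries of each (-0.03), and, with libraries left out, FN1 under the SAM68 plasmid (-0.64 to 0.06), CCN2 under SAM68 siRNA (-0.03 to 0.85) and COL12A1 under NORAD siRNA in wild type (-0.40 to 0.00452). None of the last 3 was called.

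Control plasmid against control siRNA depended most on the settings: 3 members became 11 with DESeq2, 16 without the filter, 20 with only the 4 libraries compared, 20 with all 4 plasmid against all 4 siRNA libraries (added after seeing the data), 1 with RLE scaling, and 0 to 1 with a library left out. Knockout against wild type gave 7 members, 11 without the filter, 0 with control siRNA only and 1 to 10 with a library left out. With a library left out, the knockout calls over all genes moved as well, from 2424 to between 201 and 3144, and the cause was not tested.

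Replicate numbers recur in every group. Deviations of same-numbered libraries correlated at -0.207 to 0.393 in U2OS and 0.0795 to 0.317 in HCT116 over all genes. Over the members alone they correlated at -0.0523 to 0.807 in U2OS and -0.2 to 0.663 in HCT116. The 0.807 was between control siRNA and SAM68 siRNA, and the unpaired test of that comparison counts such a shared shift as spread. The -0.0523 was between the 2 plasmid groups, while a replicate block fits 1 effect to all groups. The labels name no shared culture or day, and the numbers were not taken to pair the libraries. With a replicate block the counts were 5 between the U2OS controls, where RUNX2 lost its call (adjusted p = 0.056), 11 for the knockout, 33 between lines and 0 elsewhere. With 2 libraries a group, low members such as VIM and CCN2 in HCT116 rest on few reads, and members with a few counts carry wide intervals.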
